A study of Danio rerio with 24 samples.

Results

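This account covers the long non-coding and antisense RNAs that were expressed in zebrafish larvae exposed to perfluorohexane sulfonate (PFHxS). The deposited tables list 32520 genes, of which 2165 carry the biotype lincRNA (1493 genes) or antisense (672 genes), and none is written as lncRNA. Genes of these biotypes were kept by length and by FPKM (fragments scaled to gene length and to a factor per library). Length had to be at least 300 bases and FPKM at least 2 in at least 4 of 24 libraries. This left 231 genes, 188 lincRNA and 43 antisense. These genes were chosen by their FPKM values, so their presence in the larvae is a description and not a result, and a gene that reached the minimum only through its highest group had to differ between groups. The genes nearest the minimum, by the fourth highest FPKM over the libraries, were CR926130.2 at 2.002 inside it and BX571827.2 at 1.963 outside it. No gene reached 2 FPKM in the libraries of a single group alone, though any library of another group at that level sufficed for this. How many genes would miss the minimum without their highest group was not counted. In every library, 109 of the 231 reached 2 FPKM.

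The larvae were wild-type (Danio rerio; the labels call the material whole embryos) and were exposed from 0.75 to 120 hours post fertilisation (hpf), when they were collected. PFHxS, a persistent fluorinated surfactant, was given at 0, 0.0025 or 25 µM, and 0.1% dimethyl sulfoxide (DMSO) was present in every group, vehicle included. Fish were kept either in the dark for 24 h a day or with 14 h of light and 10 h of dark, which gave 6 groups of 4 libraries. According to its title the study asks how photoperiod changes bear on PFHxS toxicity in development. The treatment text names darkness for all samples, and the photoperiod was therefore taken from the titles. Darkness and the cycle each had their own library series and table, so photoperiod and series cannot be told apart, and darkness against the cycle was not tested. No source used here says whether the 4 libraries of a group are separate clutches, so the p-values measure the spread between these libraries.

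Long non-coding RNAs are transcripts without a recognised long reading frame. Some act in the nucleus on chromatin or splicing, some bind microRNAs or are the precursors of microRNAs, and for many the act of transcription beside a coding gene is the only known activity. Antisense RNAs are transcribed from the strand opposite another gene. Zebrafish annotations of these classes also hold transcripts with similarity to proteins, from coding genes or from retroviral remnants. Among the 231 genes, 70 carried a similarity to a known protein or protein domain in the deposited description and 161 did not. In the RefSeq table, 38 symbols were found, of which 21 are listed there as lncRNA and 17 as protein-coding. The terms long non-coding and antisense below follow the deposited biotype, also for those 17. A total of 47 genes overlapped a protein-coding gene on the other strand and 3 on the same strand only. A further 19 began within 5 kb of a protein-coding gene running the other way, 86 had another protein-coding gene within 10 kb, and 76 had none within 10 kb. Coordinates below are those of the deposited tables, whose genome build is not given in the sources used here.

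Depth over genes was 8.44 to 14.5 M fragments a library in darkness and 10.1 to 18.5 M under the cycle. The 231 genes took 0.439% ± 0.0168 (SD, n = 4) of fragments in dark vehicle larvae and 0.469% ± 0.0198 in those given 25 µM in darkness. They took 0.455% ± 0.0143 under the cycle with vehicle and 0.470% ± 0.0284 with 25 µM. Their mean FPKM over all libraries ran from 0.793 to 193 with a median of 4.09. The median was 4.51 for the 18918 protein-coding genes tested, which had to reach only 0.5 FPKM in at least 4 libraries. The set had a higher minimum, so these medians do not compare the classes of genes. The 12 most abundant genes of the set held 37.3% of its summed FPKM. Within a group the FPKM of the 231 genes varied with a median coefficient of variation of 24.2%, and of 14.5% for the 53 genes with a mean of at least 10 FPKM. The value was 13.2% for 13110 protein-coding genes with a mean of at least 2 FPKM. The genes' mean number of fragments per library had a median of 65.0 and a lowest value of 3.08, and the call of a low gene rests on few fragments. As a check of the tissue, markers of neurons, photoreceptors, lens, muscle, liver, pancreas and intestine were present in every group, except that mylpfa, a gene of fast muscle, was listed at a mean of at most 1.68 FPKM in any group.

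The 4 long non-coding RNAs known by name, malat1, oip5-as1, birc6-as2 and linc.phox2bb, did not pass the test in any contrast. Malat1 (chromosome 14, 45631236 to 45638712, minus strand), in mammals a nuclear RNA of the splicing speckles, was the most abundant gene of the set. Its FPKM was 209.7, 205, 199.7 and 195 in dark vehicle larvae and 207, 207, 169 and 198 with 25 µM in darkness. Under the cycle it was 188, 197, 191 and 187 with vehicle and 175, 191, 185 and 183 with 25 µM. The groups overlapped, and the log2 fold change for 25 µM was -0.06 ± 0.09 (SE, n = 4 a group, limma adjusted p = 0.71) in darkness and -0.06 ± 0.06 (SE, n = 4 a group, limma adjusted p = 0.68) under the cycle. Cyrano, named oip5-as1 in the tables (chromosome 13, 33261131 to 33301170, minus strand), is an RNA with a conserved microRNA site that was first studied in zebrafish embryos. Its FPKM was 45.8, 44.2, 39.5 and 41.2 in dark vehicle larvae and 45.6, 47.2, 45.3 and 45.5 with 25 µM in darkness. Its within-group coefficient of variation of 4.04% was the lowest of the 231, and its log2 fold change for 25 µM was 0.11 ± 0.06 (adjusted p = 0.246) in darkness and 0.06 ± 0.06 (adjusted p = 0.65) under the cycle.

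Megamind, whose reference name is birc6-as2 (chromosome 17, 22687170 to 22689640, minus strand), lies antisense to the ubiquitin ligase gene birc6 and has been studied in zebrafish brain and eye development. It measured 8.75, 9.82, 8.38 and 6.89 FPKM in dark vehicle larvae and 9.89, 7.52, 8.44 and 7.63 with 25 µM in darkness, values that overlapped, with a log2 fold change of -0.01 ± 0.12 (adjusted p = 0.96). Its coding partner birc6 had a log2 fold change of 0.40 ± 0.15 (adjusted p = 0.0841) in the same contrast. Linc.phox2bb, listed as CR812832.1 in the tables, is named after phox2bb, a transcription factor gene of autonomic neurons. It measured 3.02, 2.4, 2.75 and 3.67 FPKM in dark vehicle larvae and 2.96, 2.76, 1.88 and 2.17 with 25 µM in darkness. These values overlapped as well, with a log2 fold change of -0.27 ± 0.21 (adjusted p = 0.405).

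**Figure D1:**
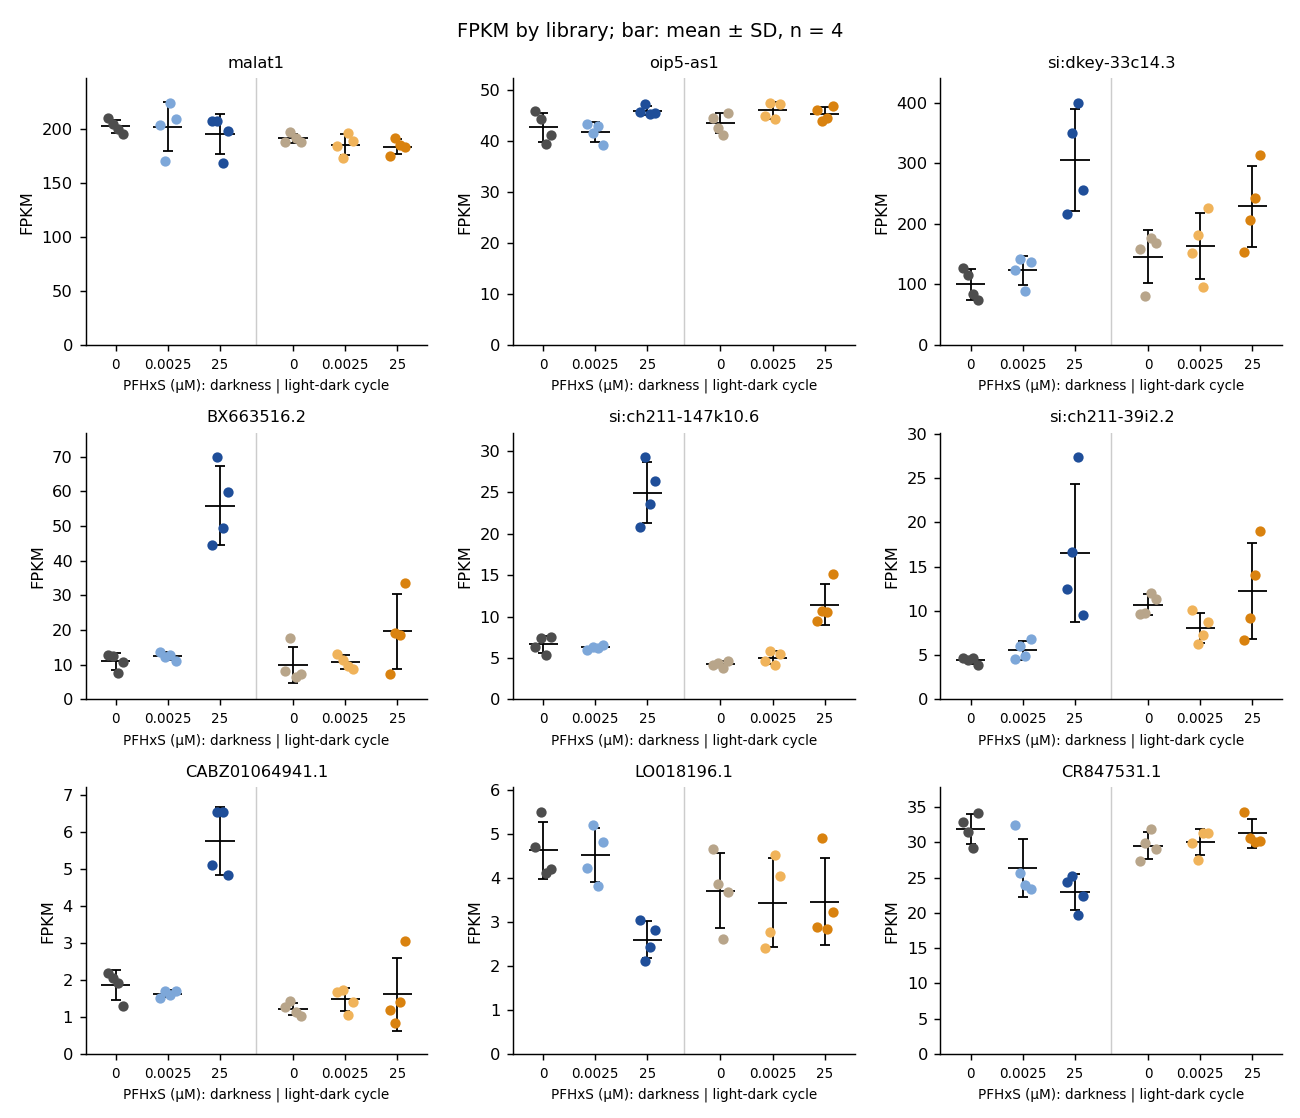
FPKM (y axis, from 0) of 9 genes of the set in each library, by PFHxS dose in µM (x axis). Darkness is on the left of each panel and the light-dark cycle on the right. Points are libraries, lines are means and bars are SD (n = 4). RefSeq lists si:ch211-39i2.2 as protein-coding. Malat1 and oip5-as1 lay at like levels in all groups, while the 4 libraries given 25 µM in darkness were above all 4 dark vehicle libraries for si:dkey-33c14.3, BX663516.2, si:ch211-147k10.6, si:ch211-39i2.2 and CABZ01064941.1 and below them for LO018196.1 and CR847531.1.

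The contrast of 25 µM with vehicle in darkness changed the most genes of the set. At an adjusted p under 0.05, 31 of the 231 rose and 22 fell, 22.9% in all, beside 20.3% of all 20145 genes tested, of which 11.4% rose and 8.9% fell. The share of the set lay near that background, which includes genes down to 0.5 FPKM in 4 libraries, a lower minimum than that of the set. In a fit limited to the 16170 genes with a mean of at least 1 FPKM, 2300 rose and 1820 fell. The share of all genes at the minimum of the set was not computed. The median log2 fold change was 0.03 for the set and -0.01 over all genes. Among lincRNA genes 23 rose and 19 fell of 188, and among antisense genes 8 rose and 3 fell of 43. By level, 22 of 53 genes with a mean of at least 10 FPKM, 27 of 127 with a mean from 2 to 10 and 4 of 51 with a lower mean passed. The share of all genes at each level was not computed, so these counts do not set the genes apart from others of like level. Of the genes that passed, 21 changed at least 2-fold, and the share of all genes that did so was not computed. Without the dark library of 25 µM replicate 2, the most deeply sequenced dark library, 34 genes passed (20 higher and 14 lower), and without any other single library of the 2 groups compared 37 to 54 did. Of all 20145 genes, 1802 rose and 1358 fell without 25 µM replicate 2, beside 2299 and 1793 with every library. The drop over all genes was larger without 25 µM replicate 3, of 9.16 M fragments, where 1774 rose and 1291 fell.

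The second most abundant gene of the set rose. Si:dkey-33c14.3 (chromosome 2, 342478 to 344595, minus strand), a lincRNA with no protein similarity, measured 127, 115, 83.8 and 74.1 FPKM in dark vehicle larvae and 216, 350.1, 399.7 and 256 with 25 µM in darkness. All 4 exposed libraries were above all 4 vehicle libraries, with a log2 fold change of 1.6 ± 0.22 (SE, n = 4 a group, limma adjusted p = 3.6e-04). At 0.0025 µM in darkness it measured 124, 143, 89.3 and 137, overlapping the vehicle. Under the cycle it measured 158, 80.4, 177 and 168 with vehicle and 153, 207, 243 and 313 with 25 µM, which overlapped, and the log2 fold change of 0.67 ± 0.31 (adjusted p = 0.326) did not pass.

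Among genes with a mean of at least 2 FPKM over the libraries of the 2 groups compared, the largest rise was that of BX663516.2 (chromosome 10, 35651494 to 35653914, minus strand), a lincRNA of 434 bases with no protein similarity and no protein-coding gene within 10 kb. It measured 12.9, 12.6, 7.58 and 10.7 FPKM in dark vehicle larvae and 44.4, 69.8, 49.4 and 59.7 with 25 µM in darkness. The groups did not overlap and the log2 fold change was 2.35 ± 0.17 (SE, n = 4 a group, limma adjusted p = 4.0e-06). At 0.0025 µM in darkness it measured 13.7, 12.2, 12.9 and 11.1, overlapping the vehicle. Under the cycle its values were 8.24, 17.7, 6.39 and 7.31 with vehicle and 7.32, 19.1, 18.5 and 33.5 with 25 µM, which overlapped, and its log2 fold change of 0.91 ± 0.41 (adjusted p = 0.309) did not pass.

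CABZ01064941.1, a lincRNA on the unplaced sequence KN150131.1 with similarity to frog thrombospondin-1, a matrix glycoprotein, measured 2.19, 2.06, 1.92 and 1.29 FPKM in dark vehicle larvae and 5.11, 6.54, 6.55 and 4.83 with 25 µM in darkness. The groups did not overlap, and the log2 fold change was 1.59 ± 0.18 (SE, n = 4 a group, limma adjusted p = 8.1e-05). Without the 25 µM dark libraries CABZ01064941.1 would not have met the minimum of the set. Its rise was therefore favoured by the choice of genes and is a description. CT009487.2, with similarity to a Kazal-type serine protease inhibitor, measured 1.94, 1.65, 1.07 and 0.794 and 3.35, 4.08, 7.17 and 2.94 FPKM in the same groups, a log2 fold change of 1.6 ± 0.36 (adjusted p = 0.00807). It begins 2620 bp from the start of nipsnap3a, which runs the other way and had a log2 fold change of -0.09 ± 0.13 (adjusted p = 0.681). A larger fold than any of these was fitted for BX005417.1, an antisense RNA chosen after its values were seen, since its mean of 1.85 FPKM over the libraries of the 2 groups compared was below the minimum of 2. It measured 0.301, 0, 0.6 and 1.13 FPKM in dark vehicle larvae and 3.75, 3.08, 1.62 and 4.32 with 25 µM in darkness, a log2 fold change of 2.85 ± 0.81 (adjusted p = 0.0259) that depends on the pseudocount of 0.1.

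Falls by the naming rule reached -1.38 on the log2 scale. Of the 51 genes with a mean under 2 FPKM over all libraries none rose and 4 fell, 3 of them at least 2-fold. The share of all genes at that level was not computed. The largest fitted fall was that of CU693471.1, a lincRNA named after its values were seen, which measured 3.06, 1.18, 1.11 and 5.74 FPKM in dark vehicle larvae and 0.293, 0.878, 0.276 and 0.532 with 25 µM in darkness, a log2 fold change of -2.07 ± 0.52 (adjusted p = 0.0145). LO018196.1 (chromosome 22, 37275954 to 37330117, minus strand), a lincRNA whose nearest protein-coding gene is sox2, a neural stem cell transcription factor gene beyond the 10 kb window, measured 4.69, 5.5, 4.1 and 4.19 FPKM in dark vehicle larvae and 3.03, 2.11, 2.42 and 2.82 with 25 µM in darkness. The groups did not overlap and the log2 fold change was -0.81 ± 0.15 (SE, n = 4 a group, limma adjusted p = 0.00261). FP017274.1 measured 14.3, 15.2, 13.3 and 14.6 and 7.3, 9.81, 5.54 and 10.2 FPKM in these groups, a log2 fold change of -0.84 ± 0.20 (adjusted p = 0.00943). CABZ01085662.1, with similarity to the unconventional myosin MYO18B of muscle, measured 14.6, 16.4, 16.4 and 17 and 9.36, 12.6, 9.74 and 9.7 FPKM. It fell by 0.64 on the log2 scale (adjusted p = 0.00516), with all exposed libraries below all vehicle libraries.

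The other named falls rested on fewer fragments. CU695223.1 measured 4.17, 4.41, 4.16 and 7.08 FPKM in dark vehicle larvae and 3.8, 2.91, 2.43 and 2.48 with 25 µM in darkness, with a log2 fold change of -0.74 ± 0.21 (adjusted p = 0.0232), a call lost without vehicle replicate 4 or 25 µM replicate 3 or 4 (adjusted p up to 0.0690). CABZ01072848.1, with similarity to frog claspin, a replication checkpoint protein, measured 3.38, 2.3, 2.89 and 2.14 and 1.83, 0.457, 1.58 and 1.57 FPKM, which gave a log2 fold change of -1.05 ± 0.34 (adjusted p = 0.0486). Its groups did not overlap, but the call was lost without any single library of these groups other than 25 µM replicate 1 (adjusted p from 0.0306 to 0.121 over the 8 fits). The proliferation markers moved in the same larvae. All 5 of these markers fell with 25 µM in darkness, their summed FPKM ran from 168 to 178 with vehicle and from 49.4 to 101 with 25 µM, and their part in the falls of single long non-coding RNAs was not tested. Both cartilage markers tested fell too, as did 3 of 5 photoreceptor markers, 2 of 5 neuron markers, 1 of 3 pancreas markers and 1 of 3 intestine markers. Of all genes tested, 8.9% fell in this contrast. The 5 neuron markers had a median log2 fold change of 0.04, beside -0.01 over all genes. Of 4 liver markers 1 rose and 1 fell, and of 2 erythrocyte markers 1 rose. In whole larvae, fewer cells of a type and less RNA per cell cannot be told apart.

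Some of these transcripts hold microRNA genes on their own strand. There were 13 such hosts with 16 microRNA genes, and 2 of the 13 rose, 1 fell and 10 did not pass at 25 µM in darkness. The 3 that passed are 23.1% of the hosts, near the 20.3% of all genes tested. The RNA libraries gave the microRNA genes themselves at most 0.376 FPKM, so the mature microRNAs were not measured. Si:ch211-147k10.6 (chromosome 25, 30171955 to 30194067, plus strand) holds dre-mir-129-4. It measured 6.35, 7.38, 5.37 and 7.57 FPKM in dark vehicle larvae, 5.95, 6.38, 6.26 and 6.59 with 0.0025 µM and 20.8, 29.2, 23.5 and 26.3 with 25 µM in darkness. The exposed libraries at 25 µM were all above the others, and the log2 fold change was 1.89 ± 0.13 (SE, n = 4 a group, limma adjusted p = 1.9e-06). It had the smallest adjusted p of the set.

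Its nearest coding gene, hsd17b12a, lies 1972 bp away on the same strand, encodes a reductase of fatty acid elongation and had a log2 fold change of 0.36 ± 0.10 (adjusted p = 0.0194) in darkness. CR589876.1 (chromosome 23, 7171653 to 7217479, minus strand) holds mir1-1 and dre-mir-133a-2, microRNAs of muscle. It measured 4.82, 4.28, 3.77 and 3.72 FPKM in dark vehicle larvae and 3.72, 1.89, 1.17 and 2.5 with 25 µM in darkness, a log2 fold change of -0.92 ± 0.28 (adjusted p = 0.0331). The highest exposed and the lowest vehicle value lay close to each other, and the call was lost with the fit on these groups alone (adjusted p = 0.0669) and without any single library of them other than 25 µM replicate 1 or 4 (adjusted p up to 0.0845). None of the 4 muscle markers passed in this contrast, and 1 of them, mylpfa, was low in every group.

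The 4 hosts of dre-mir-9 genes, microRNAs of neural progenitors, did not move as a group. BX465834.1 (dre-mir-9-5) rose with a log2 fold change of 0.38 ± 0.12 (adjusted p = 0.0418) in darkness. CR848047.1 (dre-mir-9-1) had -0.22 ± 0.08 (adjusted p = 0.0713), CU467822.1 (dre-mir-9-6) -0.21 ± 0.10 (adjusted p = 0.193) and CU929451.2 (dre-mir-9-3) -0.29 ± 0.46 (adjusted p = 0.713), none past the threshold. CU467822.1, with 32.3, 32.1, 31.1 and 36.5 FPKM in dark vehicle larvae and 30.4, 29.6, 25.3 and 29 with 25 µM, was the most abundant host. FP085414.1, the host of dre-mir-137-2, measured 24.3, 21.9, 21.3 and 21.4 and 22.1, 22, 22.2 and 21.4 FPKM in these groups, with a log2 fold change of -0.02 ± 0.07 (adjusted p = 0.895).

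Antisense and other overlapping transcripts were compared with their partners. The 47 genes that overlap a coding gene on the other strand formed 54 pairs, and the coding gene had the higher mean FPKM in 30 of them. Whether the counting used strand is not given in the sources used here, so fragments of such pairs may be shared. In darkness, 11 of the 47 passed for 25 µM, 8 higher and 3 lower, which is 23.4%, near the 20.3% of all genes tested. Si:ch211-39i2.2 (chromosome 14, 7724876 to 7744153, minus strand), an antisense RNA at brd8, a subunit gene of a chromatin acetylation complex, has similarity to the stress protein DDIT4L, an inhibitor of mTOR signalling, and RefSeq lists its symbol as protein-coding. It measured 4.67, 4.49, 4.73 and 3.89 FPKM in dark vehicle larvae, 4.52, 6.06, 4.88 and 6.79 with 0.0025 µM and 12.4, 16.6, 27.4 and 9.56 with 25 µM in darkness. The 25 µM libraries were all above the others of the dark series, and the log2 fold change was 1.76 ± 0.26 (SE, n = 4 a group, limma adjusted p = 5.1e-04). Its partner brd8 had a log2 fold change of -0.19 ± 0.09 (adjusted p = 0.166).

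CR354610.1 is written as antisense at the potassium channel gene kcnq5a, but its deposited description names similarity to the human protein KCNQ5. It measured 3.75, 2.09, 4.13 and 4.46 FPKM in dark vehicle larvae and 1.46, 1.37, 1.37 and 0.944 with 25 µM in darkness. The groups did not overlap, with a log2 fold change of -1.38 ± 0.41 (adjusted p = 0.0305) on a mean of 14.9 fragments a library, and kcnq5a itself was too low to be tested. The call was lost without any single library other than vehicle replicate 2 or 25 µM replicate 1 (adjusted p up to 0.0813). CU633999.2 is written as antisense and lies 764 bp from zhx2b, a homeobox repressor gene, on the same strand. It measured 3.0, 2.3, 1.33 and 0.986 FPKM in dark vehicle larvae and 3.53, 7.8, 6.97 and 4.48 with 25 µM in darkness, with a log2 fold change of 1.58 ± 0.36 (adjusted p = 0.00801). The zhx2b gene had 1.84 ± 0.24 (adjusted p = 2.4e-04).

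Among the 53 genes that passed in darkness, 33 had a tested protein-coding neighbour (overlapping, divergent or the nearest within 10 kb), in 36 pairs. In 8 pairs both genes passed, all 8 in the same direction and none in opposite ones. The neighbour thus passed in 22.2% of these pairs, beside 29 of 116 pairs (25.0%) whose long non-coding RNA did not pass and 20.3% of all genes tested, shares that lie near each other. Members of a pair share libraries, and where they are close or on one strand they may share fragments, which was not tested. CABZ01072309.2 (chromosome 22, 26562999 to 26584936, plus strand) measured 1.83, 2.47, 1.92 and 1.72 FPKM in dark vehicle larvae and 5.59, 6.99, 7.21 and 7.57 with 25 µM in darkness. Its log2 fold change was 1.74 ± 0.21 (adjusted p = 1.2e-04), and that of CABZ01072309.1, 160 bp away on the opposite strand, was 1.6 ± 0.12 (adjusted p = 4.0e-06).

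CR376766.2 (chromosome 13, 2352289 to 2352995, plus strand) lies 1527 bp from klhl31, a kelch protein gene of muscle, on the same strand. It measured 36.7, 40.2, 43.4 and 54.1 FPKM in dark vehicle larvae and 27.6, 26.9, 22.7 and 36.5 with 25 µM, the highest exposed value lying just below the lowest vehicle value, with a log2 fold change of -0.62 ± 0.16 (adjusted p = 0.0136). The klhl31 gene had -0.62 ± 0.11 (adjusted p = 0.00152). The other pairs were BX569787.1 with the nuclear receptor gene nr2f2, both lower, CR589944.1 with the cytokine signalling inhibitor gene cishb, both higher, CU659670.1 with bin1b, both higher, and CABZ01044746.1 with the sterol uptake gene NPC1L1, both lower.

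**Figure D2:**
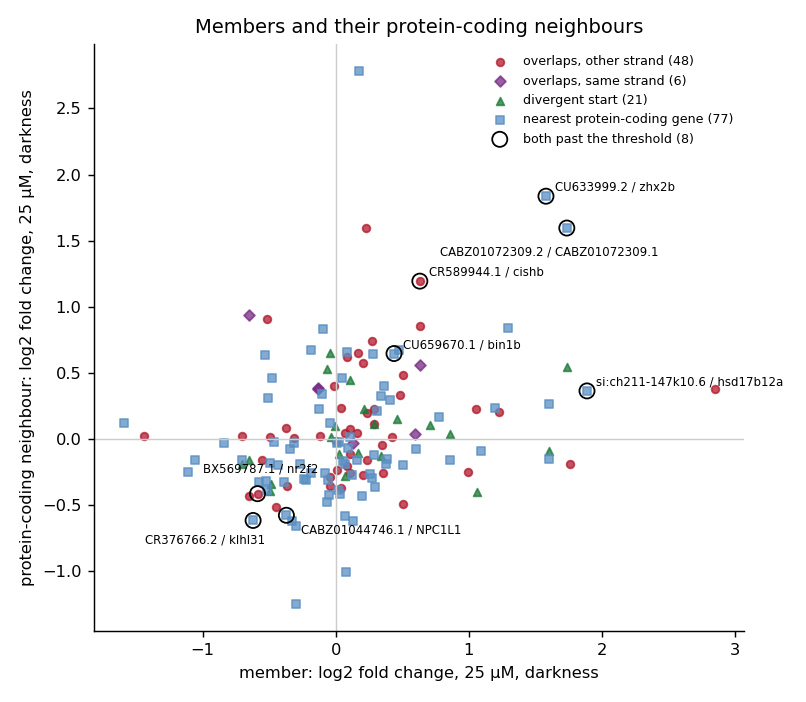
Log2 fold change for 25 µM against vehicle in darkness, 1 point a pair. The x axis gives a gene of the set and the y axis a tested protein-coding neighbour. The symbol shows how the genes lie to each other. The 8 pairs in which both genes passed the threshold are ringed and lie in the quadrants where both changed the same way.

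Transcripts with similarity to retroviral envelope (Env) proteins formed a further group, which was picked out after its values were seen. There were 6, of which 5 resemble the human endogenous retrovirus ERVPABLB-1 and 1, named erv in the reference table, resembles ERVV-1. The 5 rose at 25 µM in darkness, where 11.4% of all genes tested rose, and erv did not pass. Since the group was picked after its values were seen, this count is a description and not a test. CR753876.1 (chromosome 19, 35368602 to 35369837, plus strand) measured 26.5, 16.6, 20.1 and 6.92 FPKM in dark vehicle larvae and 36.5, 43.9, 32.4 and 33.2 with 25 µM in darkness, with a log2 fold change of 1.2 ± 0.33 (adjusted p = 0.022). BX901920.1 (chromosome 20, 14657141 to 14661432, plus strand) measured 18.6, 13.8, 15.9 and 15.9 and 25.4, 32.1, 36.2 and 35.1 FPKM, which gave a log2 fold change of 1.0 ± 0.21 (adjusted p = 0.00558). All exposed libraries were above all vehicle libraries for both.

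BX571880.1 measured 3.33, 2.69, 2.66 and 3.46 and 5.56, 8.11, 6.08 and 9.4 FPKM in these groups, a log2 fold change of 1.22 ± 0.23 (adjusted p = 0.00281). BX248082.1 measured 4.38, 4.06, 7.24 and 3.42 and 10.5, 11.6, 7.81 and 9.13 FPKM, which gave a log2 fold change of 1.06 ± 0.28 (adjusted p = 0.0194). For BX908750.1 the values were 2.63, 2.28, 2.05 and 2.49 and 4.5, 4.25, 4.39 and 4.99 FPKM and the log2 fold change 0.92 ± 0.13 (adjusted p = 4.0e-04). The groups of these 3 genes did not overlap either. Erv measured 3.28, 5.56, 3.14 and 4.16 and 2.46, 3.92, 4.63 and 2.64 FPKM, with a log2 fold change of -0.25 ± 0.27 (adjusted p = 0.581). The genes lie on chromosomes 2, 15, 16, 19 and 20, and copies of one repeat can share fragments, so they may not be separate measurements. Under the cycle none of the 6 passed, with log2 fold changes from -0.57 to 0.48, and in the test of the difference between photoperiods none passed either, with adjusted p from 0.131 to 0.771.

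**Figure D3:**
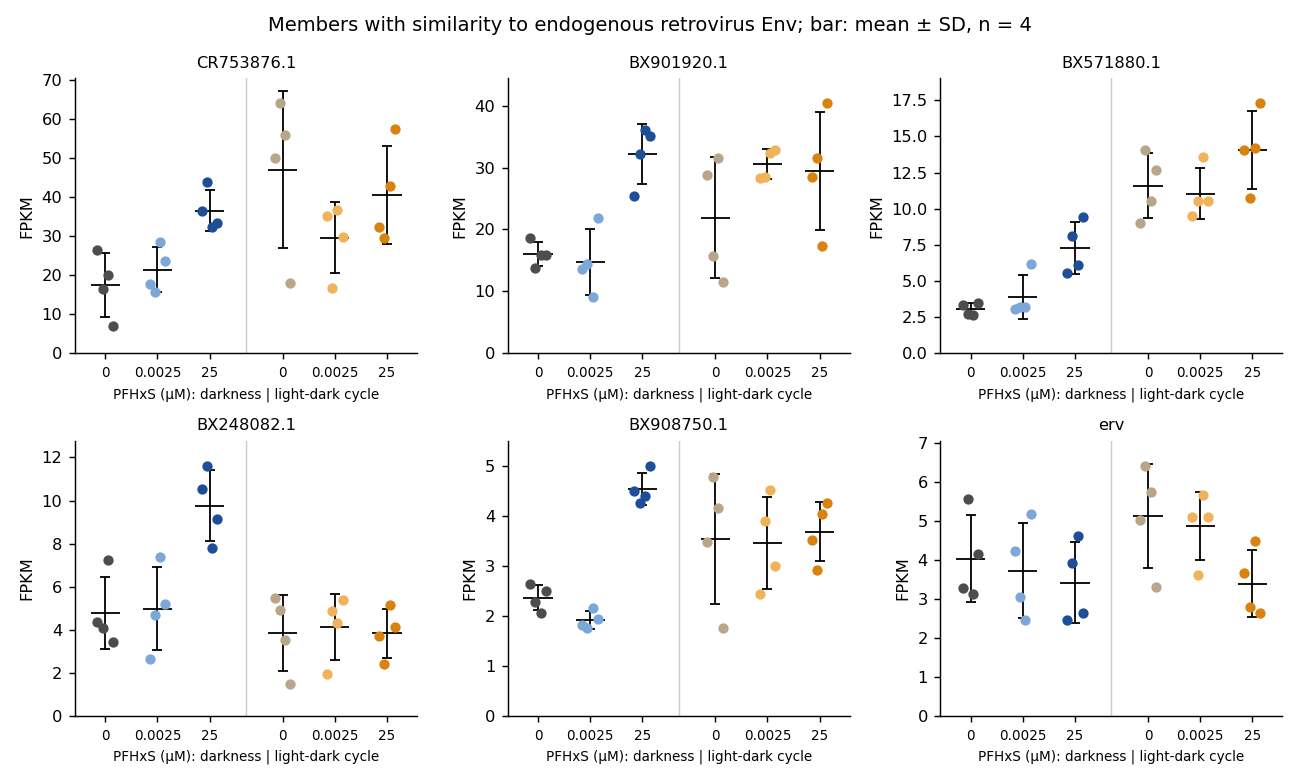
FPKM (y axis, from 0) of the 6 transcripts with similarity to retroviral Env proteins in each library, by PFHxS dose in µM (x axis), with darkness on the left and the cycle on the right of each panel; points are libraries, lines are means and bars are SD (n = 4). In darkness the 25 µM libraries lay above the vehicle libraries for 5 of the 6 and overlapped them for erv.

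Under the light-dark cycle 25 µM changed 2 of the 231 genes, both higher, which is 0.866% beside 1.48% of all genes tested. Of all genes, 0.963% rose and 0.521% fell. These shares of all genes depended on single libraries, with 194 genes higher and 105 lower when every library was used. The counts were 415 and 281 without 25 µM replicate 1, and 46 and 20 without 25 µM replicate 3. Si:ch211-147k10.6 measured 4.2, 4.43, 3.74 and 4.63 FPKM with vehicle, 4.62, 5.82, 4.12 and 5.54 with 0.0025 µM and 9.49, 10.6, 10.5 and 15.1 with 25 µM. The 25 µM libraries were all above the others, with a log2 fold change of 1.39 ± 0.15 (SE, n = 4 a group, limma adjusted p = 0.00149). CABZ01077121.1 (chromosome 5, 11278426 to 11283521, minus strand), with similarity to proline dehydrogenase and 7217 bp from prodhb, the proline dehydrogenase gene, measured 1.86, 2.42, 2.57 and 2.7 FPKM with vehicle and 3.69, 3.65, 4.55 and 5.35 with 25 µM. Its log2 fold change was 0.82 ± 0.16 (adjusted p = 0.0303), and the call was lost without any single library of these groups other than 25 µM replicate 1 (adjusted p from 0.0195 to 0.0991 over the 8 fits). It rose in darkness too, from 0.694, 1.47, 0.639 and 1.16 FPKM to 1.86, 3.27, 1.75 and 3.33, a log2 fold change of 1.29 ± 0.35 (adjusted p = 0.0194).

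The difference between the 25 µM effects in darkness and under the cycle was tested directly and passed for 3 of the 231 genes, 1.3% beside 1.16% of all genes tested. The rise was larger or the fall smaller in darkness for 1 of the 3, beside 0.973% of all genes, and the reverse held for 2, beside 0.189%. These shares of all genes depended on scaling, and with scaling to total fragments they were 0.601% and 0.536%. Si:ch211-39i2.2 had the larger rise in darkness, with a difference of 1.67 ± 0.39 (adjusted p = 0.0351) on the log2 scale. Under the cycle it measured 9.69, 9.76, 12 and 11.4 FPKM with vehicle and 6.77, 9.15, 14 and 19.1 with 25 µM, which overlapped. CR847531.1, a lincRNA, measured 32.8, 31.5, 29.2 and 34.1 FPKM in dark vehicle larvae and 24.4, 25.3, 19.7 and 22.4 with 25 µM in darkness, a fall with a log2 fold change of -0.48 ± 0.11 (adjusted p = 0.00854). Under the cycle it measured 27.4, 29.9, 31.9 and 29 and 34.3, 30.6, 30.0 and 30.2, and the difference was -0.56 ± 0.13 (adjusted p = 0.0403).

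BX005003.1, with similarity to cadherin-8, an adhesion protein of neurons, measured 8.12, 7.38, 7.87 and 7.75 FPKM in dark vehicle larvae and 6.02, 5.83, 4.62 and 5.28 with 25 µM in darkness, a log2 fold change of -0.52 ± 0.10 (adjusted p = 0.00335). Under the cycle the values were 6.63, 6.16, 6.91 and 5.33 and 6.56, 6.26, 6.6 and 7.73, and the difference was -0.63 ± 0.15 (adjusted p = 0.0346). Of the 16 fits that left out 1 library, the call was lost in 11 for si:ch211-39i2.2, in 11 for CR847531.1 and in 10 for BX005003.1, with adjusted p of at most 0.0959. Without 1 library, 0 to 6 genes passed, with 0 without the dark vehicle library of replicate 1, 2 or 4 or the cycle library of 25 µM replicate 1, and with 6 without the cycle library of 25 µM replicate 4. Their number was 1 without the dark vehicle library of replicate 3, the dark library of 25 µM replicate 3, the cycle vehicle library of replicate 2 or 4, or the cycle library of 25 µM replicate 2 or 3. The counts over all 20145 genes moved too, from 196 higher and 38 lower with every library. They were 346 and 136 without the cycle library of 25 µM replicate 4, and 107 and 18 without that of replicate 1.

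**Figure D4:**
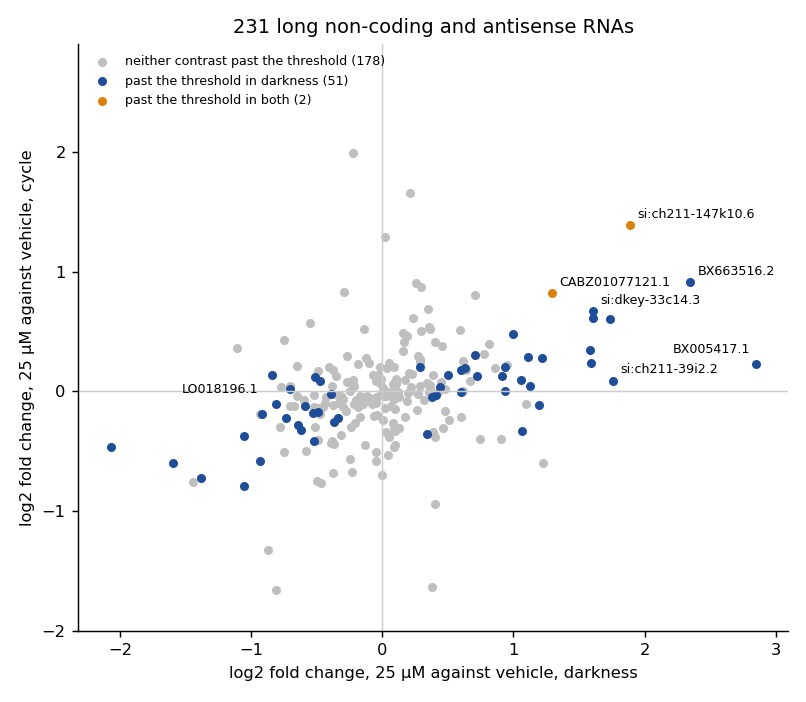
Log2 fold change for 25 µM against vehicle of the 231 long non-coding and antisense RNAs, in darkness (x axis) and under the light-dark cycle (y axis), 1 point a gene, coloured by the contrasts in which it passed an adjusted p of 0.05. The 2 genes past the threshold in both lie at the upper right, and 51 genes passed in darkness alone.

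The dose of 0.0025 µM changed none of the 231 genes in darkness by limma, and limma-voom on recovered fragments called none either, while 17 had an unadjusted p under 0.05. Of all genes tested, 0.0248% passed the adjusted threshold, and their share at an unadjusted p under 0.05 was not counted. The 3 with the smallest p were CR382370.2, with 10, 9.02, 10.4 and 10.7 FPKM in the vehicle and 11.5, 14.5, 15.8 and 13.9 in the exposed libraries and a log2 fold change of 0.46 ± 0.13 (adjusted p = 0.539), then BX901883.2 and FP102052.2. BX901883.2, antisense at the channel subunit gene cacng2a, had a log2 fold change of 0.63 ± 0.19 (adjusted p = 0.562), and FP102052.2 had -0.51 ± 0.16 (adjusted p = 0.562). Under the cycle the dose changed none of the 231 by either tool, with 16 at an unadjusted p under 0.05. Of all genes tested, 0.0% passed the adjusted threshold, and their share at an unadjusted p was not counted here either. CR848757.1 had the smallest p there, with 21.2, 20.1, 19.2 and 16.6 FPKM in the vehicle and 14, 14.8, 12 and 14.3 in the exposed libraries. Its log2 fold change was -0.48 ± 0.12 (adjusted p = 0.878), beside 0.90 ± 0.25 (adjusted p = 0.878) for CU929451.2 and -0.35 ± 0.11 (adjusted p = 0.878) for CR759918.1.

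Among the other abundant genes, BX936337.1, which overlaps SENP7 on the same strand, rose with 25 µM in darkness. It measured 33.9, 32.1, 33.7 and 38.8 FPKM with vehicle and 52.3, 50.3, 57.9 and 49.4 with 25 µM, a log2 fold change of 0.60 ± 0.15 (adjusted p = 0.0122). BX548046.2 rose as well, from 27.1, 25.1, 28.8 and 23.4 to 31.1, 33.4, 38.1 and 29.9 FPKM, which gave a log2 fold change of 0.34 ± 0.10 (adjusted p = 0.0291), with groups that did not overlap. CU856520.1 fell from 39.3, 36.7, 31.8 and 32.9 to 32.1, 22.8, 19.7 and 24.1 FPKM, which gave a log2 fold change of -0.53 ± 0.13 (adjusted p = 0.0131), with groups that overlapped. BX088688.1 lies 3913 bp from the clock gene clocka on the same strand and did not pass at 25 µM, with 0.09 ± 0.15 (adjusted p = 0.734) in darkness and 0.06 ± 0.07 (adjusted p = 0.751) under the cycle. BX322618.1 did not pass either, with 0.19 ± 0.14 (adjusted p = 0.398) and -0.08 ± 0.40 (adjusted p = 0.958).

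Levels in darkness and under the cycle stand side by side without a test, since the tables were scaled separately. In vehicle larvae, 53 of the 231 genes had groups that did not overlap between darkness and the cycle, 17 higher in darkness and 36 higher under the cycle, which is 22.9% beside 24.3% of all genes tested. The split by direction was not counted over all genes. The median log2 ratio of darkness to cycle was -0.14 for the set and -0.02 for all genes tested. The abundant gene BX088688.1 measured 36.4, 20.6, 25.5 and 24.5 FPKM in dark and 86.1, 88.1, 84.9 and 84.1 in cycle vehicle larvae. Its log2 ratio of -1.68 was not the largest toward the cycle, and CABZ01067657.1 had -3.20. CABZ01079276.1 measured 14.8, 15.9, 26.1 and 8.75 in dark and 1.27, 0.89, 1.43 and 3.1 in cycle vehicle larvae. It was chosen as the largest log2 ratio toward darkness among genes with a mean of at least 2 FPKM and groups that did not overlap. The levels of BX088688.1 did not overlap between the series either.

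Few genes whose products make, end or degrade such RNAs passed at 25 µM in darkness, where 11.4% of all genes tested rose and 8.9% fell. The lists were not tested against these shares. Of 19 tested genes of nuclear RNA surveillance, none rose and 1 fell at 25 µM in darkness, with a median log2 fold change of 0.00 beside -0.01 over all genes. Of 23 genes of the Integrator and termination machinery 2 fell, of 11 genes of microRNA processing 1 fell, of 13 genes of nonsense-mediated decay none passed, and none of these lists had a member that rose. Of 19 chromatin and RNA-binding partners of long non-coding RNAs, none rose and 6 fell, with a median of -0.14, where 8.9% of all genes tested fell. All 5 proliferation markers fell in the same contrast, with a median log2 fold change of -1.56, and their part in these falls was not tested. The 6 were ezh2 and suz12a of the Polycomb repressive complex, rbbp4, a histone chaperone, yy1b, wdr5 and the nuclear matrix gene hnrnpub. The largest of these falls was that of ezh2, from 5.94 ± 0.985 (SD, n = 4) to 3.08 ± 0.672 FPKM, with a fitted log2 change of -0.93 ± 0.17 (SE, adjusted p = 0.00231), and rbbp4 had -0.79 ± 0.11 (adjusted p = 4.4e-04). No member of these 5 lists passed for 25 µM under the cycle, and the difference passed for none of them.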

How the data were processed

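RNA from 24 libraries was sequenced. Per the submitters' processing notes, alignment was by HISAT2 2.0.5 and counting by featureCounts 1.5.0-p3. FPKM per gene was deposited by the authors in 2 tables, 1 per photoperiod, each scaled on its own. No source used here gives the genome build, annotation release or counting strand. Multiplied by gene length, 100% of values were whole multiples of a library's smallest step (tolerance 0.001), from which fragment numbers were recovered. The deposited factor per library was not simply the recovered total of fragments. Scaling to that total was run as an alternative. All 24 value columns were matched to a sample by the library name in its description, and the group was read from the sample title.

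The test was limma 3.58.1 in R 4.3.3 on log2(FPKM + 0.1) (empirical Bayes with an intensity trend). Genes needed 0.5 FPKM in at least 4 libraries (20145 genes, all 231 members among them). Contrasts within a photoperiod used its 12 libraries, and the difference between photoperiods all 24. P-values were adjusted by Benjamini-Hochberg over all genes tested, and an adjusted p under 0.05 was the threshold at any fold. Fold changes understate those of low genes. Python 3.11.15 made the tables. The procedure was tested on simulated data, with changes put only into genes with a mean of at least 1 FPKM. The simulated spread was the same for all genes and was not matched to that of the members. It therefore does not show how the test performs for low or variable members. The members, gene lists and tests were chosen with earlier results of these data known.

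By the naming rule the text gives the 12 most abundant members, the 8 largest rises and falls per contrast (6 for the difference) among members past the threshold with a mean of at least 2 FPKM over the libraries of the groups compared and groups that do not overlap, the 3 smallest p where none passed, known long non-coding RNAs, and overlapping or near genes of these. Names came from a reference table that held 170 of the 231 identifiers. No pair of libraries was identical, and libraries of a group correlated with r from 0.930 to 0.958.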

Additional observations from a re-analysis of the deposited data

Results flagged for a closer look

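In 3 groups of 4 dark libraries, 1 library stood apart from the others, with a gap to its nearest neighbour that filled most of the group's range. For CABZ01085662.1, 25 µM replicate 2 was the highest of its group at 12.6 FPKM, for CU695223.1, vehicle replicate 4 was the highest of its group at 7.08 FPKM, and for CR354610.1, 25 µM replicate 4 was the lowest of its group at 0.944 FPKM. Chance flags about 1 in 20 such groups. The number of groups examined is not given here, so the 3 cannot be set against that rate.

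The 25 µM effect differed between darkness and the cycle for 3 genes by limma's test of the difference. The difference, darkness minus cycle, was 1.67 on the log2 scale for si:ch211-39i2.2, -0.63 for BX005003.1 and -0.56 for CR847531.1.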

How the results depend on the processing

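In darkness at 25 µM the 53 members called became 42 with the replicate block, 44 to 57 under the other filters, pseudocount, scalings, fits and limma-voom and 38 to 63 under the other member rules, and 34 to 54 when 1 library was left out. The counts over all genes tested moved as well, from 2299 higher and 1793 lower to 2034 and 1506 with the replicate block. Scaling by median ratios of fragments gave the same 2299 and 1793 in darkness, so it was no separate check there. Under the cycle the 2 members called became 1 with the groups compared alone, 4 with a minimum of 1 FPKM for members, and 1 to 3 without 1 library. Over all genes tested, 194 rose and 105 fell under the cycle, beside 72 and 16 with the groups compared alone. The 3 calls of the difference became 6 with a pseudocount of 1 and 0 to 6 without 1 library, 2 with limma-voom and 2 without an expression filter. At 0.0025 µM 0 members passed under every alternative run. Of the 27 named results followed through the alternatives, none changed direction, and 19 kept their status, called or not called, in all of them. These 19 include the named results at 0.0025 µM, which were not called in any fit. Calls of CU695223.1, CR589876.1, CR354610.1, CABZ01072848.1, CABZ01077121.1 and the 3 differences were each lost in some, and the cause was not tested. The call of si:ch211-39i2.2 in the difference was lost with limma-voom (adjusted p = 0.0590) and with scaling to total fragments (adjusted p = 0.0536). Other calls given in the text were not among the 27, such as those of BX936337.1, BX548046.2, CU856520.1, BX465834.1 and the Env transcripts.

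Replicate numbers did not pair the libraries. Deviations of same-numbered libraries correlated with r from -0.118 to 0.0288, and 3 of 16 libraries correlated best with their own number. With the replicate block 42 members passed in darkness, 2 under the cycle and 2 for the difference. Low fragment numbers limit genes with a mean under 2 FPKM.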
